A study of Homo sapiens with 3 samples.

Results

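The STEAP metalloreductases and the main genes of cellular iron uptake, storage and export were examined in C4-2, an established prostate adenocarcinoma line derived from LNCaP. Members were taken by gene symbol, matched through GENCODE release 44, and all 10 were found once among the 58302 genes of each file: STEAP1, STEAP2, STEAP3, STEAP4, TFRC, SLC11A2, FTH1, FTL, NCOA4 and SLC40A1. The study compared adenocarcinoma with neuroendocrine-like prostate cancer cells and depleted neuropilin-2 in the latter. Here 3 libraries of unmodified C4-2 cells, labelled wild type, formed the only group, so levels are described and no conditions are compared. The labels name 1 cell line and do not say whether the replicates were separate cultures, so any p-value refers to library-to-library spread alone, and that spread may be technical. The medium and its iron and androgen content were not given in the sources used here.

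Iron enters most cells as ferric iron on transferrin, which is taken up by the transferrin receptor. In the endosome the iron must be reduced before the transporter DMT1 can carry it into the cytosol, and STEAP proteins are among the reductases that do so. Iron not in use is kept in ferritin, is freed when NCOA4 carries ferritin to the lysosome, and leaves the cell through ferroportin. STEAP1 was first described as a surface antigen of prostate tumours, and STEAP2 is likewise abundant in prostate.

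The libraries held 47513470 to 51200272 reads assigned to genes, and each started from 770 ng of RNA. Levels are given as TPM, the read count scaled by the merged exon length of the gene and by the library total, as mean ± SD over n = 3 libraries unless stated otherwise. All 10 members reached 10 reads in every library, the minimum for calling a gene detected, against 71.8% of protein-coding genes. All 10 reached a mean of 1 TPM, against 62.7% of protein-coding genes. STEAP4 was closest to that line at 1.06 ± 0.188 TPM, and it fell to 0.791 ± 0.141 TPM with canonical transcript length. The members had a median of 153 TPM, beside 5.43 TPM over all 19708 protein-coding genes and 15.9 TPM over the detected ones. Luminal prostate markers marked the cells as labelled, with 7 of 7 detected between 114 and 1440 TPM. Of 5 macrophage markers only CSF1R was detected, at 1.46 ± 0.395 TPM, and the macrophage list summed to 1.75 to 2.23 TPM per library. None of 4 erythroid markers was detected in every library, though HBA1 had 22, 0 and 14 reads and HBA2 had 6, 3 and 0. HBB had 0 reads, for which the 95% upper bound was 0.0631 CPM, a count scaled by the library total, in the smallest library. Of 4 hepatocyte markers only APOA1 was detected, and of 4 fibroblast markers only COL1A1, at 10.2 ± 0.392 TPM.

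**Figure D1:**
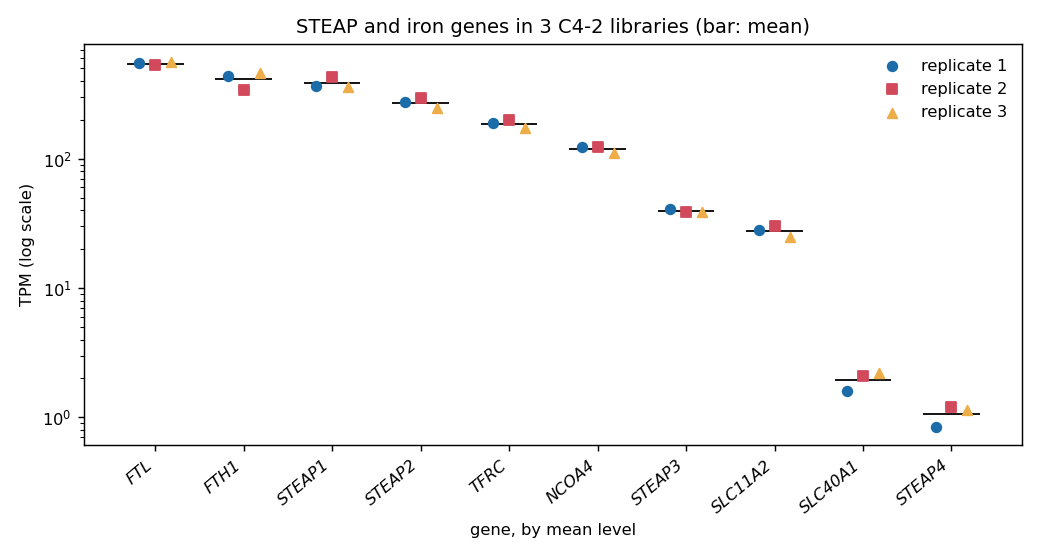
Level of each member in the 3 C4-2 libraries. Points are libraries, horizontal bars are means, and the vertical axis is TPM on a log scale. FTL, FTH1, STEAP1, STEAP2, TFRC and NCOA4 lie above 100 TPM in every library, and SLC40A1 and STEAP4 lie below 3 TPM.

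STEAP1 and STEAP2 carried nearly all of the STEAP signal, and STEAP4 had the lowest mean TPM of all members. In the files the 4 genes are ENSG00000164647 (STEAP1), ENSG00000157214 (STEAP2), ENSG00000115107 (STEAP3) and ENSG00000127954 (STEAP4). STEAP1 encodes a family member without the N-terminal oxidoreductase domain, and its coding sequence is the shortest of the family at 339 codons, against 490 in STEAP2, 498 in STEAP3 and 459 in STEAP4. Its counts were 10035, 10698 and 9699, or 368, 427 and 357 TPM in replicates 1, 2 and 3. Replicate 2 was the high library, and the mean of 384 ± 37.8 TPM ranked 232 among protein-coding genes. The pioneer factor gene FOXA1 (386 ± 2.57 TPM) and JTB (386 ± 15.6 TPM) lay just above it, and POLDIP2 (384 ± 4.50 TPM) and ILF2 (379.8 ± 6.49 TPM) just below. These 4 genes differed from STEAP1 by less than its SD.

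STEAP2 encodes a full-length family member that reduces iron and copper. It held the most reads of any member, 40470, 39516 and 35678, which over its longer exons gave 277, 294 and 245 TPM. STEAP1 was above STEAP2 in 3 of 3 libraries, by 0.50 ± 0.07 on the log2(TPM + 0.1) scale, or 1.41-fold. Without scaling by length the order turned, with STEAP1 minus STEAP2 at −1.92 log2 units, so the order of this pair rests on the exon lengths of 1625 and 8715 bases. Of the STEAP1 exon positions, 82.6% lay in a 64-base stretch that occurs once in the genome, so reads from the rest may have been dropped as mapping to several places. With the same counts divided by the number of those positions in each gene, the difference was 0.75 log2 units.

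STEAP3, the endosomal ferrireductase of the transferrin cycle in red cell precursors, had 3105, 2715 and 2947 reads, or 40.5, 38.6 and 38.7 TPM. In TPM the libraries lay close together, with a coefficient of variation of 2.75%, the lowest of the members, followed by FTL at 2.88%. STEAP2 exceeded STEAP3 by 2.78 ± 0.13 log2 units (6.89-fold) in 3 of 3 libraries, and by 13.2-fold without length scaling. STEAP3 shares 10.96% of its exon bases with its antisense gene STEAP3-AS1 (2.06 ± 0.601 TPM).

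STEAP4, a family member known from fat tissue and inflammation, had 160, 208 and 213 reads, or 0.847, 1.201 and 1.134 TPM. Replicate 1 was low and the other two were alike. In bulk RNA, fewer cells with a transcript and less of it per cell cannot be told apart. The mean of 1.06 ± 0.188 TPM was above that of 37.7% of protein-coding genes. STEAP2 exceeded STEAP4 by 7.88 ± 0.28 log2 units, or 236-fold, in 3 of 3 libraries. With a pseudocount of 1 TPM the fold was 132. Of the summed TPM of the 4 genes, 55.1 ± 1.32% came from STEAP1, 39.0 ± 1.14% from STEAP2, 5.67 ± 0.519% from STEAP3 and 0.153 ± 0.0269% from STEAP4.

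No other gene near STEAP1 and STEAP2 came close to their level. They lie side by side on the plus strand of chromosome 7 (GRCh38), STEAP1 at 90154375 to 90164829 and STEAP2 at 90167590 to 90238137, with 2760 bases between them. Within 200 kb on either side, 12 other genes were annotated, of which 6 were detected. The highest of these was the claudin gene CLDN12 at 40.6 ± 1.599 TPM, followed by GTPBP10 at 15.1 ± 2.05. The antisense gene STEAP2-AS1 shares no exon base with either gene and lay at 8.80 ± 0.981 TPM. Its span (89882353 to 90211635, minus strand) runs across STEAP1 and into STEAP2. Strand was ignored in counting, so its reads cannot be assigned to either strand. STEAP4 lies on the other strand of the same chromosome (88270892 to 88306891), and STEAP3 on chromosome 2 (119223831 to 119265652, plus strand). STEAP1B, a copy of STEAP1 on the short arm of chromosome 7, had 38, 35 and 52 reads (1.10 ± 0.211 TPM).

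Among 10 genes of metalloreductases, 9 were detected, with a list median of 24.6 TPM. After STEAP1 and STEAP2 the highest was CYB561, which encodes a cytochrome b561 of secretory vesicles, at 221 ± 2.23 TPM. The duodenal ferric reductase gene CYBRD1 was not detected, with 12, 14 and 8 reads (0.135 ± 0.0416 TPM). CYB561D2 and CYB561A3 lay at 34.9 ± 2.86 and 14.3 ± 0.708 TPM, and they share 38.2% and 26.5% of their exon bases with other genes.

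Iron-responsive elements are RNA hairpins in untranslated regions that bind the iron regulatory proteins when iron is scarce. Binding near the start of a ferritin or ferroportin transcript blocks its translation, and binding after the coding part of the transferrin receptor transcript protects it from decay. The annotated untranslated regions were searched on the transcript strand for 30 bases with a C at position 8, the loop CAGTGN at positions 14 to 19, and 5 of 5 pairs between positions 9 to 13 and 20 to 24, counted from the 5′ end and with G-U pairs allowed. This form was found in 4 of the 10 members and in 0.914% of all protein-coding genes (0.197% for 5′ and 0.738% for 3′ regions). These 4 were already known from the literature as carriers, so the search recovers known elements and is no test of the members. The matches are shown because they tie the members of storage, uptake and export to 1 sequence form. They are printed as DNA from GENCODE release 44 transcripts, with the bulged C and the loop in capitals.
FTH1 5′ UTR (chr11:61967574-61967603, minus strand): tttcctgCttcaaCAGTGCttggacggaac
FTL 5′ UTR (chr19:48965334-48965363, plus strand): tctcttgCttcaaCAGTGTttggacggaac
SLC40A1 5′ UTR (chr2:189580661-189580690, minus strand): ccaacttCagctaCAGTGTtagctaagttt
TFRC 3′ UTR, element 1 (chr3:196050979-196051008, minus strand): taattatCggaagCAGTGCcttccataatt
TFRC 3′ UTR, element 2 (chr3:196050575-196050604, minus strand): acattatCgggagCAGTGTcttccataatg
TFRC 3′ UTR, element 3 (chr3:196050510-196050539, minus strand): tctgtatCggagaCAGTGAtctccatatgt
TFRC 3′ UTR, element 4 (chr3:196050463-196050492, minus strand): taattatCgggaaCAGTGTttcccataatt

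The ferritin elements share 27 of 30 bases, and the 4 matches in TFRC lie within 546 bases. The TFRC numbers count only matches to the form searched, so an element of another form would have been missed. No match was found in STEAP1, STEAP2, STEAP3, STEAP4, NCOA4 or SLC11A2, which says only that these letters are not in the annotated regions. SLC11A2 is among the transcripts known from the literature to carry an element, so the form searched misses some known carriers. The counts do not measure binding or translation. Members with a match spanned the range of levels, from FTL to SLC40A1.

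TFRC, the transferrin receptor gene, was the highest of the uptake genes. It had 24910, 24095 and 22618 reads, or 188, 198 and 172 TPM, with replicate 3 the low library. Its mean of 186 ± 13.4 TPM ranked 659 among protein-coding genes. SLC11A2, which encodes DMT1, had 4636, 4563 and 4054 reads, or 28.1, 30.2 and 24.7 TPM, again lowest in replicate 3. TFRC exceeded SLC11A2 by 2.75 ± 0.04 log2 units (6.72-fold) in 3 of 3 libraries, and by 2.15 with canonical transcript lengths. TFRC (ENSG00000072274) is annotated on chromosome 3 (196027183 to 196082189, minus strand) and SLC11A2 (ENSG00000110911) on chromosome 12 (50979401 to 51028566, minus strand).

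Other uptake routes were expressed at lower levels than TFRC. Of 11 uptake genes, 10 were detected and 9 reached 1 TPM. The zinc and iron carrier genes SLC39A8 and SLC39A14 lay at 107 ± 7.51 and 64.2 ± 3.42 TPM. TFR2, the second transferrin receptor, known mainly from liver and red cell precursors, lay at 19.7 ± 1.01 TPM, with 1577, 1580 and 1718 reads. The gene of transferrin itself, TF, was not detected, with 0, 10 and 13 reads.

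Ferritin genes gave the highest mean TPM among the members, and the order of the subunits depended on the length used for scaling. In replicate 2, however, STEAP1 (427 TPM) lay above FTH1 (343 TPM). With canonical transcript lengths STEAP1 (377 TPM) lay above FTL (353 TPM) in that library. FTL, the light chain gene, had 8118, 7147 and 8194 reads, or 551, 529 and 559 TPM, a mean of 546 ± 15.7 TPM (rank 136). FTH1, the gene of the heavy chain that oxidises iron, had 14974, 10731 and 15613 reads, or 439, 343 and 461 TPM. Replicate 2 was far below the other two. At face value FTH1 lay 0.41 ± 0.19 log2 units below FTL (−0.41) in 3 of 3 libraries.

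FTH1, however, shares 62.4% of its exon bases with exons of BEST1, a gene on the opposite strand that had 290, 277 and 269 reads. With the options recorded in the file headers, reads that touch exons of both genes were assigned to neither. In the canonical FTH1 transcript, 3 of 4 exons lie inside BEST1 exons, which leaves 323 of 1203 bases, the first exon, to gather reads. That exon holds the iron-responsive element printed above. FTH1 (ENSG00000167996) is annotated on chromosome 11 (61959718 to 61967660, minus strand) and FTL (ENSG00000087086) on chromosome 19 (48965301 to 48966878, plus strand).

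**Figure D2:**
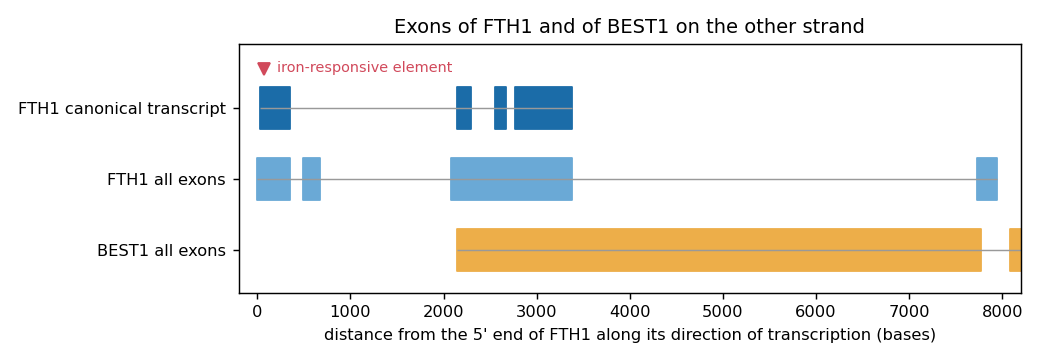
Exons of FTH1 and BEST1 against distance in bases from the 5′ end of FTH1, with the plot ending before the last BEST1 exons. Boxes are exons. The first FTH1 exon lies clear of BEST1, and the other 3 exons of the canonical transcript lie inside 1 merged BEST1 exon.

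With the same counts divided by the length of the bases shared with no other gene, FTH1 reached 1103 ± 166 TPM. It had 1169, 913 and 1226 TPM in the 3 libraries and lay 1.00 log2 unit above FTL. With the length of such bases in the canonical transcripts it reached 1725 ± 262 TPM, 2.23 log2 units above FTL. Only the length changed, and no reads were recounted. With the full canonical transcript lengths the difference was 0.33. These lengths placed the heavy chain at 43.0 ± 3.15% to 82.4 ± 1.91% of summed ferritin TPM. The replicate SD of 0.19 log2 units is small beside this range.

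**Figure D3:**
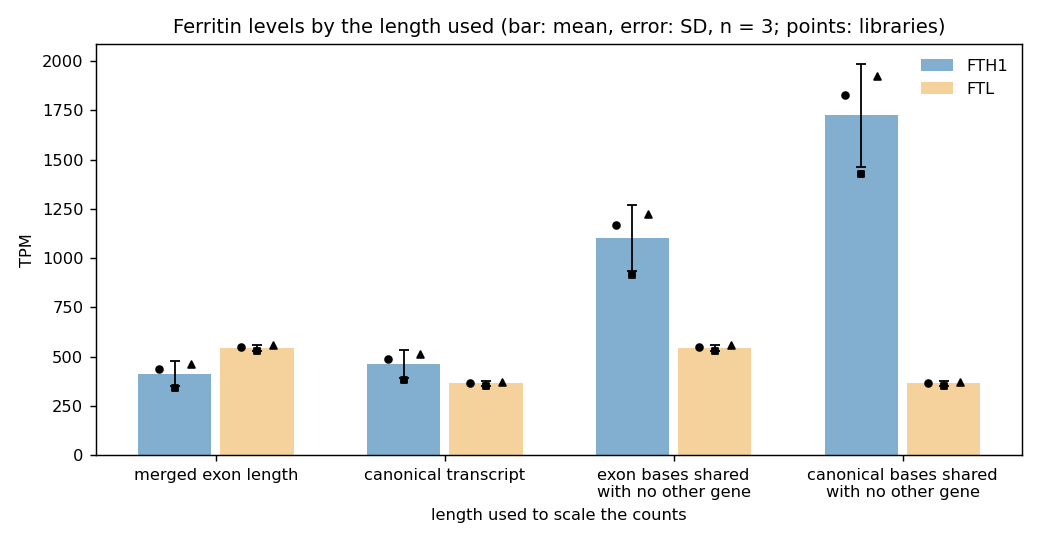
FTH1 and FTL in TPM under 4 choices of the length that scales the counts. Bars are means, error bars are SD (n = 3) and points are libraries. FTH1 is below FTL with merged exon lengths and above it with the other 3 lengths.

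Reads in named ferritin pseudogenes were few beside those of the parent genes. The 25 FTH1 pseudogenes in the files summed to 364, 345 and 344 reads, or 2.55% of FTH1 reads, with FTH1P4, FTH1P20 and FTH1P3 highest. The 16 FTL pseudogenes summed to 155, 151 and 146 reads, or 1.93% of FTL reads, and FTLP14 held most of them with 114, 107 and 114. Of FTH1 and FTL exon positions, 86.0% and 85.0% lay in 64-base stretches that occur once in the genome. Adding the pseudogene reads, still with merged exon lengths, left FTH1 below FTL by 0.40 log2 units (−0.40). Those lengths include the FTH1 bases shared with BEST1, so this value does not settle the order of the subunits.

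NCOA4, the receptor that delivers ferritin for breakdown, had 8386, 7727 and 7614 reads, or 122, 123 and 112 TPM. Its mean of 119 ± 6.32 TPM was 3.45-fold below that of FTH1 at face value, a log2 difference of 1.79 ± 0.28. The fold ran from 1.72 without length scaling to 18.4 with the length of canonical bases shared with no other gene. The summed ferritin level exceeded TFRC by 2.37 ± 0.22 log2 units, or 5.16-fold, in 3 of 3 libraries. With the length of bases shared with no other gene it was 8.83-fold, and without length scaling it was −0.16 log2 units. The cytosolic iron chaperone genes PCBP1 and PCBP2 lay at 159.7 ± 7.91 and 53.3 ± 2.69 TPM, and they share 52.2% and 32.7% of their exon bases with other genes. The mitochondrial ferritin gene FTMT had 0, 0 and 4 reads. NCOA4 (ENSG00000266412) is annotated on chromosome 10 (46005088 to 46030714, minus strand).

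Iron export genes were low throughout. SLC40A1, which encodes ferroportin, the iron exporter, had 116, 140 and 158 reads, or 1.596, 2.10 and 2.19 TPM. Replicate 1 was lowest, and the mean of 1.96 ± 0.319 TPM was above that of 42.1% of protein-coding genes. TFRC exceeded SLC40A1 by 6.51 ± 0.28 log2 units, or 91.0-fold, in 3 of 3 libraries. The fold was 63.3 with a pseudocount of 1 TPM and 168 without length scaling. The ferroxidases that act with ferroportin were lower still, with CP at 0.301 ± 0.0930, HEPHL1 at 0.237 ± 0.114 and HEPH at 0.154 ± 0.0464 TPM. All 4 export genes were detected and only SLC40A1 reached 1 TPM. SLC40A1 (ENSG00000138449) is annotated on chromosome 2 (189560579 to 189583758, minus strand).

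The genes of the 2 iron regulatory proteins were both expressed. IREB2 lay at 36.4 ± 3.65 TPM and ACO1 at 23.9 ± 0.896 TPM, a difference of 0.60 ± 0.10 log2 units in 3 of 3 libraries, and 1.35 with canonical transcript lengths. FBXL5, which encodes the iron-sensing subunit of the ligase that degrades IREB2 protein, lay at 25.2 ± 1.46 TPM. Of 11 regulators, 9 were detected and 8 reached 1 TPM. The gene of hepcidin, HAMP, the liver hormone that removes ferroportin from the surface, had 4, 2 and 2 reads. Among the other transcripts known to carry an iron-responsive element, EPAS1, which encodes a hypoxia-inducible factor, lay at 3.85 ± 0.620 TPM. The form searched above had no match in EPAS1.

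Iron-sulfur assembly, heme and copper genes ranged widely in level. Of 27 iron-sulfur assembly genes, 26 were detected with a list median of 32.8 TPM, led by the chaperone gene HSPA9 (243 ± 13.2 TPM), CIAO2B (173 ± 16.6), BOLA1 (79.4 ± 1.95) and CIAO1 (70.5 ± 2.88). FDX2, the exception, shares 70.9% of its exon bases with other genes. All 20 heme genes were detected, with a median of 31.7 TPM, and the biliverdin reductase gene BLVRB (225 ± 15.1 TPM), TMEM14C (158 ± 10.1), PGRMC1 (138 ± 12.02) and the ferrochelatase gene FECH (133 ± 4.03) were highest. The heme oxygenase gene HMOX1 lay at 33.7 ± 1.11 TPM, and the lowest heme gene was ALAS2 at 0.528 ± 0.0734 TPM. Of 9 copper handling genes, 8 were detected with a median of 20.01 TPM over all 9, and the copper chaperone gene COX17 (69.97 ± 2.22 TPM) and the importer gene SLC31A1 (68.6 ± 5.73) led. SCO2 had 0 reads, and all of its exon bases are shared with another gene.

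**Figure D4:**
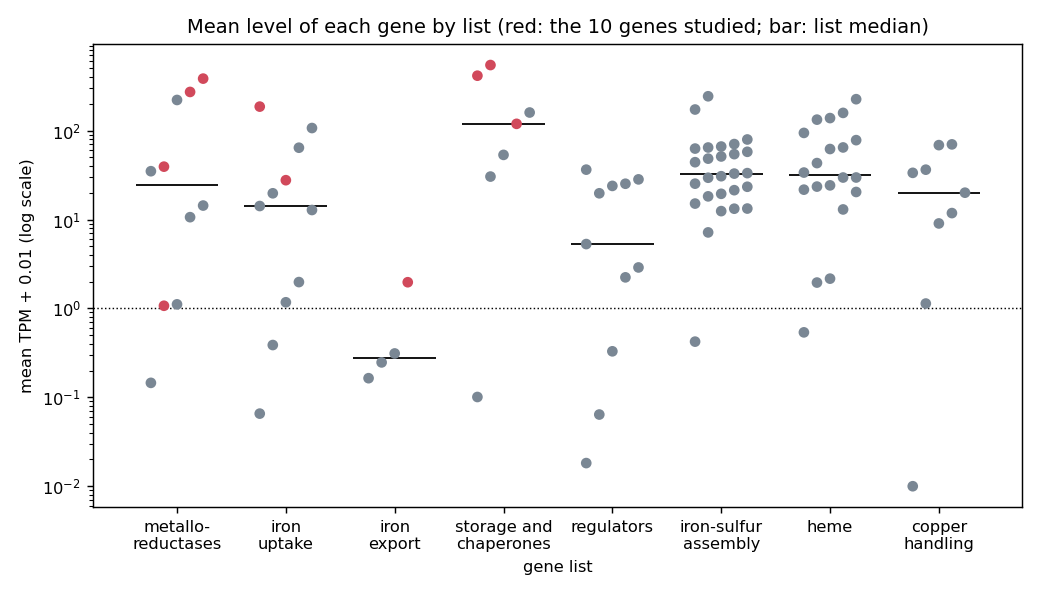
Mean TPM plus 0.01 of every gene of 8 lists, on a log scale, with members in red, other genes in grey and the list median as a bar. The dotted line marks 1 TPM. Only SLC40A1 of the export list lies above it, and the storage list has the highest median (119 TPM).

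In order of mean TPM the members were FTL, FTH1, STEAP1, STEAP2, TFRC, NCOA4, STEAP3, SLC11A2, SLC40A1 and STEAP4. Values of neighbours in this order were apart in 3 of 3 libraries except for FTH1 and STEAP1, whose ranges overlapped and whose order held in 2 of 3. This order uses merged exon lengths, which for FTH1 include the bases shared with BEST1. With the length of bases shared with no other gene, FTH1 (1103 ± 166 TPM) stood above every other member in 3 of 3 libraries. With canonical transcript lengths SLC11A2 (43.6 ± 4.26 TPM) stood above STEAP3 (27.9 ± 0.732 TPM). The 9 within-library differences given here were put to an exact permutation test, two-sided, that flips the sign of each library's difference. Each exact p was 0.25, also after Benjamini-Hochberg adjustment over the 9. That is the smallest p that 3 libraries allow, so none could pass 0.05.

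The members' counts differed between the replicates by more than counting noise, though most by little. A chi-square test of homogeneity against TMM library sizes, adjusted by Benjamini-Hochberg over 21039 detected genes, called 10 of 10 members, where 46.1% of all detected genes and 62.5% of the genes averaging 1000 reads or more were called. If both mates of each read pair had been counted, the statistic should be divided by 2. Then 6 of 10 members were called (STEAP1, STEAP2, TFRC, FTH1, FTL and SLC11A2), against 17.6% of detected genes and 33.2% of the deeply counted. The 8 members with at least 1000 reads on average had normalised counts whose highest library was 1.07 to 1.41 times the lowest, beside a median of 1.08 over 8109 such genes.

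FTH1 stood out in that spread. Because reads touching BEST1 exons were assigned to neither gene, the FTH1 counts describe only its part outside those exons. Its TMM-normalised counts were 14516, 11071 and 15626, and 13 of the 8109 deeply counted genes, FTH1 included, had a ratio of highest to lowest library at or above its 1.41. The adjusted p was 2.88e-172 in the chi-square test and 1.39e-08 without replicate 2, the low library. FTL was also lowest in replicate 2, by a smaller margin, at 7869, 7374 and 8201 (adjusted p = 7.03e-09).

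STEAP1, STEAP2, TFRC and SLC11A2 had the opposite order, highest in replicate 2 and lowest in replicate 3. STEAP2 had normalised counts of 39231, 40769 and 35708 (adjusted p = 4.09e-73), and TFRC 24147, 24859 and 22637 (adjusted p = 6.87e-22). STEAP1, at 9728, 11037 and 9707, was alike in replicates 1 and 3, and without replicate 2 it was not called (adjusted p = 0.938). Whether the library patterns come from the cells or the handling was not tested.

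**Figure D5:**
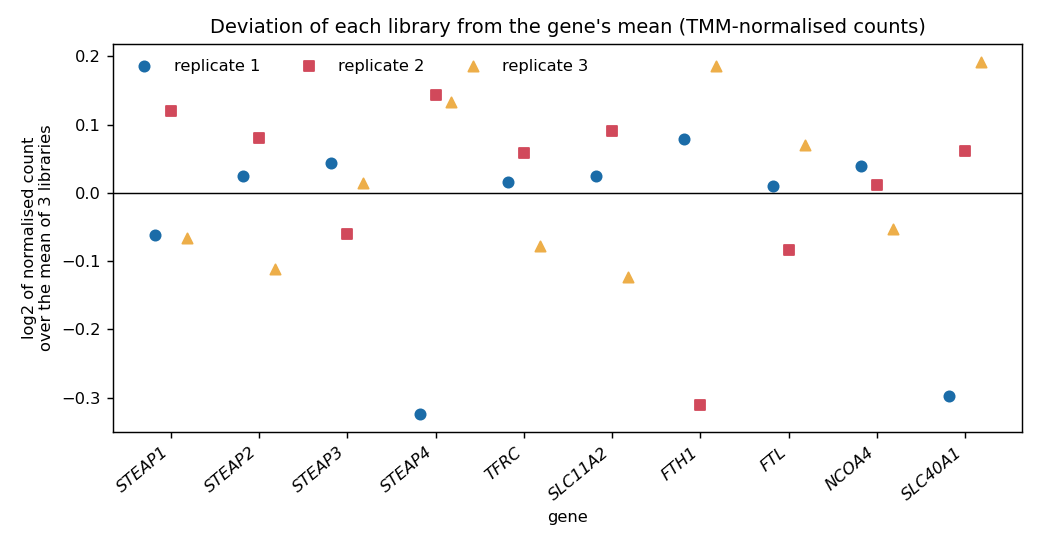
Deviation of each library from the gene's mean, as log2 of TMM-normalised counts. FTH1 and FTL are lowest in replicate 2, STEAP1, STEAP2, TFRC and SLC11A2 are highest in it, and STEAP4 and SLC40A1 are lowest in replicate 1.

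Dividing the statistic by 2 ended the calls of 4 members. STEAP4 (adjusted p = 0.00781), SLC40A1 (0.0398) and STEAP3 (0.0444) lost theirs (0.160, 0.302 and 0.315), as did NCOA4 (0.000866 against 0.0660). Without replicate 1 the calls of STEAP4 (0.962), SLC40A1 (0.598) and STEAP3 (0.134) were lost, without replicate 2 that of STEAP3 (0.613), and without replicate 3 those of NCOA4 (0.384), SLC40A1 (0.135) and SLC11A2 (0.0922). Over all 92 genes of the iron lists, 50 of the 86 detected were called, and 22 with the statistic divided by 2. That share lay between those of all detected and of deeply counted genes.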

How the data were processed

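RNA was measured in 3 replicate libraries of C4-2 cells. Per the labels' protocols, total RNA was depleted of ribosomal RNA and built into strand-specific libraries. Per the file headers, the deposited values are raw counts, made for each gene by featureCounts 1.6.3 with the Ensembl release 90 annotation of GRCh38. The recorded options set no strand, so strand was ignored, and reads on exons of more than 1 gene or mapping to several places were dropped. Per the submitters' processing notes, STAR 2.7.0f was among the tools.

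Gene names came from GENCODE release 44 (98.7% of identifiers matched). TPM was computed from counts and merged exon length, and log2 values used a pseudocount of 0.1 TPM. The count table holds 1 group, so no count model was fitted between groups. TMM factors came from edgeR 4.0.16 (R 4.3.3), DESeq2 1.42.0 size factors were an alternative, and other steps used Python 3.11.15 and scipy 1.17.1. The chi-square test was tried on simulated counts that held counting noise alone, with 200 of the better counted genes raised in replicate 2. At 1.25-fold it called 80.0% of these and 0.0432% of the others. The simulation held no further spread between libraries, so it cannot show how the test behaves under such spread. Members, lists and tests were chosen with earlier results of these data known. Named genes were all members, up to 4 highest of each list, and preset regulators, reductases and carriers. The 2 length choices that leave out bases shared with another gene were added after seeing the data. Intervals and floors cover counting error only.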

Additional observations from a re-analysis of the deposited data

How the results depend on the processing

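No paired analysis was possible because the 3 libraries form 1 group, so replicate numbers pair no samples across groups; the level differences were taken within each library. Of the 9 level differences, 6 kept their direction under every alternative run. FTH1 minus FTL was −0.41 log2 units and turned to 0.33 with canonical transcript lengths and 0.80 without length scaling. It was 1.00 with the length of exon bases shared with no other gene and 2.23 with that of such bases in the canonical transcript. Without length scaling, STEAP1 minus STEAP2 turned to −1.92 and summed ferritin minus TFRC to −0.16. With the chi-square statistic divided by 2, called members went from 10 to 6 and called iron list genes from 50 to 22. With total assigned reads as library size, 9 members and 43 iron list genes were called, against 46.2% of detected genes. With all genes of at least 1 read tested, 9 members and 50 iron list genes were called, against 38.2% of those genes. STEAP3 was the member lost in both. Leaving out 1 library gave 26 to 41 called iron list genes and 7 to 8 called members, while the share called over all detected genes went from 46.1% to between 23.8% and 32.7%. The number of members detected was 10 under every count minimum tried.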

Other observations

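Of the 8109 genes averaging 1000 reads or more, 12 had a wider ratio of highest to lowest library than FTH1, and all are named here after their values were seen. SNORA73B (1.85), MT-ND4L (1.73), RNU4-1 (1.69), RNU4-2 (1.65), MT-TP (1.64), CLEC11A (1.59), MT-ND3 (1.54) and SNORA71A (1.49) were lowest in replicate 2, as FTH1 was. SNORD3A (1.46) was lowest in replicate 1. TVP23B (1.49), SCML2 (1.45) and LMBRD2 (1.44) were highest in replicate 2 and lowest in replicate 3, as STEAP1, STEAP2 and TFRC were. They include small nucleolar, spliceosomal and mitochondrial RNAs as well as protein-coding transcripts of the nucleus. Whether the patterns share a source was not tested.

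Among other genes of the lists, chosen after their values were seen, lipocalin-2, a carrier of iron-binding siderophores encoded by LCN2, lay at 12.8 ± 1.51 TPM, and its receptor gene SLC22A17 at 14.2 ± 0.336. Erythroferrone, known as a hormone of red cell precursors and encoded by ERFE, was detected with 325, 286 and 312 reads (5.28 ± 0.119 TPM). The red cell heme synthesis gene ALAS2 had 16, 18 and 21 reads, and the general form ALAS1 lay at 94.2 ± 2.35 TPM.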
